A study of Mus musculus with 12 samples.

Results

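The genes described here are 10 genes of the LIF and STAT3 pathway, taken by name from the 26061 genes of the expression table. They are the receptor chains Lifr and Il6st, the kinase Jak1, the transcription factor Stat3, the feedback inhibitor Socs3, and 5 genes known as targets of STAT3, Pim1, Pim3, Gbx2, Bcl3 and Junb. Each was in the table once, and all 10 passed the filter on low values that left 14185 genes for testing. Poly(A) RNA-seq was made from 12 libraries of mouse embryonic stem cells (ESCs), 3 in each of 4 groups. All were Tet2 KO ESCs, in which an exon of the gene for the 5-methylcytosine dioxygenase TET2 was targeted, and all were infected with shSetdb1, an shRNA against the histone methyltransferase gene Setdb1, selected with puromycin and collected after 3 days of selection. They were rescued with a PiggyBac construct for WT TET2 or for a catalytic mutant (H1304Y, D1306A), and each line was grown in serum with LIF (primed ESCs) or in 2i (naïve ESCs), a medium with LIF, the MEK inhibitor PD0325901 and the GSK3b inhibitor CHIR99021. The 4 groups are therefore WT naïve, mutant naïve, WT primed and mutant primed. LIF was in both media, so no group lacked the ligand. The media also differed in base medium and supplements, and the study lists no serum for 2i. The parts of serum, base medium and inhibitors in a difference between media cannot be told apart. Each rescue construct is represented by a stable line, so a difference between the lines and a difference between the constructs cannot be told apart. Libraries with another shRNA were not analysed here, and the labels do not say that replicates were separate cultures, so the p-values measure the spread between libraries.

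LIF, a cytokine of the interleukin-6 family, binds a receptor made of LIFR and the shared chain gp130, the product of Il6st. The receptor activates JAK kinases, which phosphorylate STAT3, and STAT3 then enters the nucleus and switches on its target genes, among them Socs3, whose product shuts the receptor down. This pathway is known for holding mouse ESCs in self-renewal, and 2i adds inhibitors of MEK, whose signal promotes differentiation, and of GSK3, a negative regulator of Wnt signalling. RNA levels do not report STAT3 phosphorylation.

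The promoters of 3 members are shown, Socs3 as the feedback target of STAT3, and Pim1 and Gbx2 as the members whose RNA differed between the media. The sequences are RefSeq promoters (table of GRCm38.p6), 250 bases before and 50 from the start site on, and all 12 promoters of the 10 members were matched once, without mismatch, to mm9, the build of the expression table. Capitals mark a match to TTCNNNGAA, the spacing preferred by STAT proteins, or to the longer TTCNNNNGAA. Both motifs read the same on either strand, and a stretch that matches one does not match the other at the same ends. Socs3 lies at chr11:117830631-117830930 on the minus strand, the first promoter of Pim1 at chr17:29627480-29627779 on the plus strand, and Gbx2 at chr1:91827702-91828001 on the minus strand.
Socs3: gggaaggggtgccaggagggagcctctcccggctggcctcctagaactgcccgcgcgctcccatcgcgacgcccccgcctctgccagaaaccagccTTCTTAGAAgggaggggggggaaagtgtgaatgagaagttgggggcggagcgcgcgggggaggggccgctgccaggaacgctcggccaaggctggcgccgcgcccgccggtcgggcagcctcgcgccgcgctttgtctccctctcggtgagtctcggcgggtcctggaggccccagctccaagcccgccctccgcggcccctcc
Pim1: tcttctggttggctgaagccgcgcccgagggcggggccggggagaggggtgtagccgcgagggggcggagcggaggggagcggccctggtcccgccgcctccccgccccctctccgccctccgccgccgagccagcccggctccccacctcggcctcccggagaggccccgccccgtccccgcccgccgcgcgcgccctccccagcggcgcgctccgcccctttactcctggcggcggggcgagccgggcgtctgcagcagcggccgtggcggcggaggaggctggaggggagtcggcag
Gbx2: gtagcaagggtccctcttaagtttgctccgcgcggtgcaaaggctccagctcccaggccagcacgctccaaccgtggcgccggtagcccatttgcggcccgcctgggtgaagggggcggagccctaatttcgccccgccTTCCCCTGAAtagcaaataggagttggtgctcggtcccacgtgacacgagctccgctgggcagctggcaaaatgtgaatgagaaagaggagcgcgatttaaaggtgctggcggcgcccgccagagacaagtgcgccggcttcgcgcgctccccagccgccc
TTCNNNGAA was found in 1 of the 10 members, in Socs3, where it starts at base -154 from the start site. TTCNNNNGAA was found in 1 member, Gbx2, at base -111. Of 32851 RefSeq promoters of this length, 8.3% held the former and 6.95% the latter. The Pim1 promoter held neither, and 81.3% of its bases were G or C, against 73.3% in Socs3 and 64.7% in Gbx2.

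Reads assigned to genes numbered 8066662 to 21335933 per library, and the members had 64 (Gbx2) to 2969 (Socs3) reads in a library. The 10 ESC markers fixed for the check were all expressed, with a summed level of 42520 to 53390 normalised reads in every library, while 4 of the 7 fibroblast or feeder markers (Col1a2, Col3a1, Postn and Dcn) had no read in any library. The sum over 7 markers of primed or formative cells was 1300 to 3162 in naïve and 8425 to 14230 in primed libraries. Sums for primitive endoderm markers were 41.3 to 104.5, for mesoderm and streak 79.4 to 195, for neural 633 to 1140, for trophoblast 6.82 to 169.1, and for fibroblast or feeder markers 29.4 to 93.9 normalised reads. The trophoblast sum was higher in every primed library (94.3 to 169.1) than in any naïve library (6.82 to 39.1). The fibroblast or feeder sum was lower in every primed library (29.4 to 60.6) than in any naïve one (67.2 to 93.9). The genes of these lists did not all move alike. Of the 10 ESC markers, 2 were called higher and 3 lower in naïve ESCs with WT TET2, and 1 and 3 with mutant TET2. These are 50% and 40% of the list, beside 35.9% and 35.2% of all genes tested. Primed ESCs had 8.3 and 10.9 times the normalised reads of Lin28a with WT and mutant TET2. Mean Prdm14 was higher in naïve ESCs, at 9.37 against 7.73 with WT and 9.10 against 7.47 with mutant TET2. Of the trophoblast markers, Gata3 had 50 to 267 reads in primed libraries and 0 in naïve ones. Mean Krt7 was lower in naïve ESCs with WT TET2 (4.81 against 5.69 on the log2 scale) but higher with mutant TET2 (5.50 against 4.98). Thy1 was higher in naïve ESCs in both lines, while Lum was called lower there with mutant TET2 (4.98 against 5.92). The part of these markers in the differences between media was not tested. Tet2 RNA, read from the construct and the targeted locus together, was higher in the WT line by 2.16 in naïve and 1.84 in primed ESCs on the log2 scale (limma, adjusted p = 0.0154 and 0.0297). Both calls were lost without single libraries, with an adjusted p of up to 0.132 and 0.151. Between media, Tet2 was called lower in naïve ESCs in both lines. Primed ESCs had 2.76 and 3.47 times its normalised reads with WT and mutant TET2. Setdb1 did not pass the test between the lines, at 0.13 and 0.16 (limma, adjusted p = 0.857 and 0.788). In naïve ESCs, libraries with replicate number 3 stood apart in both lines for some genes: Il6st, Gbx2 and Junb were highest there among the members, as were the DNA methyltransferase genes Dnmt3a, Dnmt3b and Dnmt3l. The manipulated genes were highest there too, Tet2 by 1.09 and 1.24 and Setdb1 by 0.59 and 0.53 over the mean of the other naïve libraries of the WT and mutant line. The members' differences between media are given with and without these libraries, and the part of Tet2 or Setdb1 levels in them was not tested.

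Per kilobase of annotated exon, Pim1, which encodes a serine/threonine kinase that promotes survival, was the most abundant member in naïve ESCs, at 879.9 ± 251 normalised reads (SD, n = 3) in the WT and 849.8 ± 65.7 (SD, n = 3) in the mutant line. Socs3 followed at 442 ± 51.2 and 486 ± 61.8. Every naïve library had more Pim1 (596 to 1075) than the naïve library with most Socs3 (545). In primed ESCs this gap was gone, since Pim1 was at 379 ± 53.7 and 369 ± 69.1, Socs3 at 455 ± 78.4 and 414 ± 19.4, and Pim3, a kinase of the same family, at 358 ± 44.1 and 342 ± 47.4, ranges that overlap. Il6st came next, from 164.5 to 342 over the 12 libraries, above Stat3, from 105 to 201, with some overlap. Junb, Lifr, Jak1 and Bcl3 lay between 50.3 and 171 and overlapped with each other over the 12 libraries, although within WT primed ESCs Junb (152 to 158) was above Lifr (111 to 136) and Lifr above Jak1 (89.4 to 99.1). Gbx2 was the least abundant member in every group, at 24.2 ± 7.83 and 20.7 ± 6.68 in naïve and 45.3 ± 10.8 and 46.5 ± 8.88 in primed ESCs (SD, n = 3 each), though its highest primed value (54.7) overlapped with the lowest of Bcl3. These levels divide by the combined length of all annotated exons, so a gene that uses short transcripts reads too low.

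**Figure D1:**
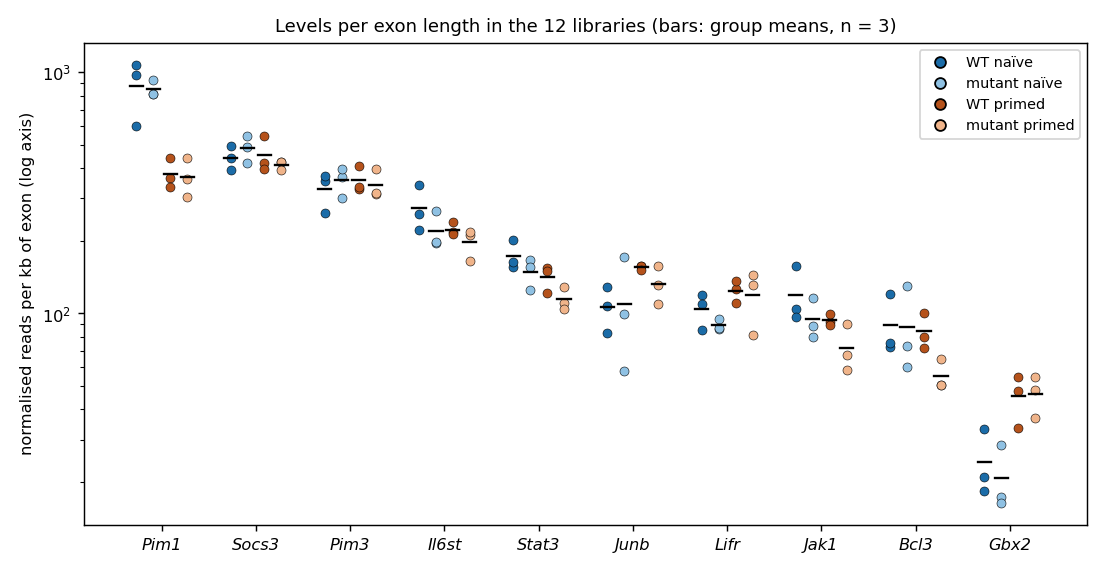
Normalised reads per kilobase of exon (log axis) for the 10 genes in the 12 libraries; points are libraries coloured by group and bars are group means (n = 3). Pim1 is the highest in naïve ESCs (596 to 1075) and falls to the range of Socs3 and Pim3 in primed ESCs, and Gbx2 is the lowest of the 10.

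All other values are expression on the deposited log2 scale, and differences are differences on that scale, tested with limma over all genes. The scale compresses low counts, so a difference understates the change of a weakly expressed gene. Socs3 varied least of the members, by 0.47 between its lowest and highest library, and Pim1 most, by 1.78.

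The media were compared first, within each rescue line. Of the 10 members, 2 passed the test and passed it in both lines: Pim1 was higher and Gbx2 lower in naïve ESCs. Of all genes tested, 35.9% were called with WT TET2 (18.6% higher and 17.3% lower in naïve ESCs) and 35.2% with mutant TET2 (18.3% higher and 16.9% lower), so the share of members called, 20%, was below the background. It was also 20% for a call in the same direction in both lines, against 26.1% of all genes. The members' median difference was 0.01 with WT and 0.18 with mutant TET2, against 0.01 and -0.01 over all genes tested. Both lines were compared within their own libraries, and the lines share no library. Same-numbered naïve libraries of the 2 lines deviated together (correlations of 0.30 to 0.586), so the lines are not fully independent repeats. In bulk RNA a difference can come from fewer cells with the transcript or from less of it per cell, and these cannot be told apart.

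Pim1 (mm9 chromosome 17, 29627757 to 29632390) was at 11.07, 10.92 and 10.23 in the WT naïve libraries and at 10.86, 10.67 and 10.67 in the mutant naïve libraries. In primed ESCs it was at 9.54, 9.43 and 9.80 with WT and at 9.81, 9.29 and 9.53 with mutant TET2. Every naïve library lay above every primed library, and WT naïve replicate 3 was the naïve library closest to them. The difference was 1.15 with WT (95% interval 0.72 to 1.58, adjusted p = 0.000401) and 1.19 with mutant TET2 (0.76 to 1.62, adjusted p = 0.00033), which corresponds to 2.32 and 2.30 times the normalised reads. An exact two-sided permutation test gave p = 0.1 in each line, the smallest that 3 libraries against 3 allow. Under all alternatives the adjusted p stayed between 3.71e-05 and 0.0029 with WT and between 0.000229 and 0.00335 with mutant TET2. Without naïve replicate 3 the difference was 1.40 and 1.22. The libraries were not strand-specific, and Gm16912, a lincRNA on the opposite strand that overlaps an exon of Pim1, moved with it, by 1.01 and 0.94 (adjusted p = 0.00207 and 0.00349). It had 99 to 567 reads per library against 486 to 2784 for Pim1, and reads of the 2 genes cannot be told apart where they overlap.

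Gbx2 (mm9 chromosome 1, 91824537 to 91829865) encodes a homeobox transcription factor that is known to sustain ESC self-renewal downstream of STAT3. It was at 6.71, 6.85 and 7.38 in WT naïve and at 6.64, 6.58 and 7.20 in mutant naïve libraries, with replicate 3 the highest in both. In primed ESCs it was at 7.84, 7.40 and 8.02 with WT and at 8.01, 7.85 and 7.52 with mutant TET2. No naïve library reached a primed one, though WT naïve replicate 3 came within reach of WT primed replicate 2. The difference was -0.77 with WT (95% interval -1.27 to -0.27, adjusted p = 0.0179) and -0.99 with mutant TET2 (-1.49 to -0.49, adjusted p = 0.00421), so primed ESCs had 1.88 and 2.25 times the normalised reads (exact permutation test, p = 0.1 in each line). With WT TET2 the call was lost without naïve replicate 1 (adjusted p = 0.0688), naïve replicate 2 (0.0611), primed replicate 1 (0.0648) or primed replicate 3 (0.0894), and over all alternatives the adjusted p was 0.00616 to 0.0894. With mutant TET2 it was 0.0019 to 0.026. Without naïve replicate 3 the differences were -0.98 and -1.19. Gbx2 had 64 to 438 reads per library, and the opposite-strand gene D130058E05Rik, which overlaps one of its exons and had 26 to 156 reads, was also lower in naïve ESCs, by -0.61 and -0.62 (adjusted p = 0.0454 and 0.0429). Reads from their overlap cannot be told apart.

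**Figure D2:**
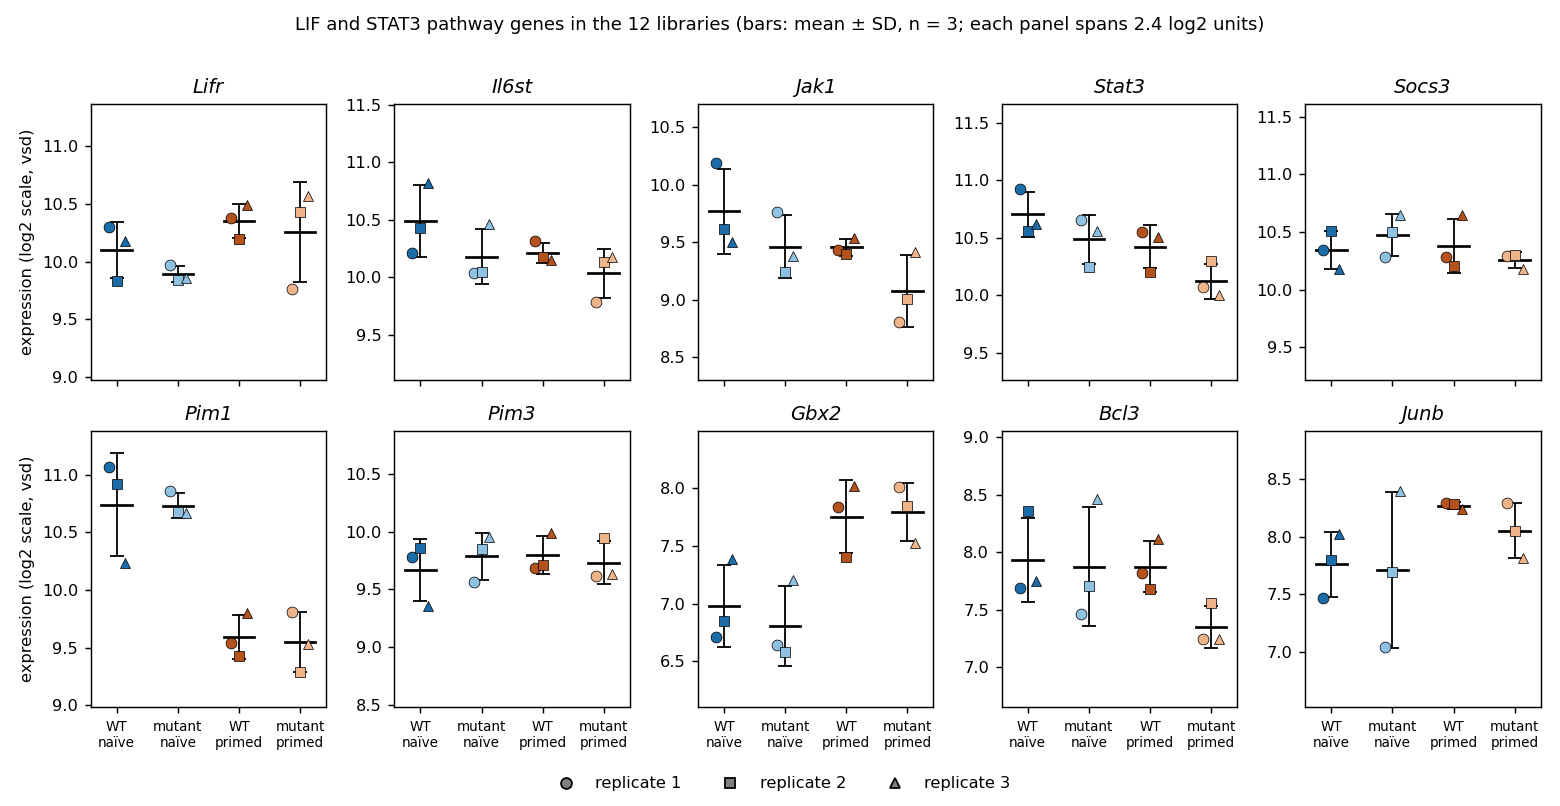
Expression (log2 scale) of the 10 genes in each of the 12 libraries; symbols mark replicate numbers, colours the groups, and bars the mean ± SD (n = 3), with every panel spanning the same range. Pim1 is above 10 in all naïve and below 10 in all primed libraries, Gbx2 is lower in all naïve libraries, and the other genes overlap between media in at least one line.

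The receptors, the kinase and STAT3 itself did not pass the test between media. Lifr (mm9 chromosome 15, 7079559 to 7147489) was at 10.10 ± 0.24 in WT naïve and 10.35 ± 0.15 in WT primed ESCs, and in the mutant line at 9.89 ± 0.07 and 10.26 ± 0.43 (SD over 3 libraries). The intervals of its difference ran from -0.66 to 0.16 and from -0.78 to 0.04, and without naïve replicate 3 the difference was -0.29 and -0.35. Without mutant primed replicate 1, the lowest Lifr library, the mutant difference was -0.61 and passed the test (limma, adjusted p = 0.0139). Il6st (chromosome 13, 113265216 to 113297068) differed by 0.27 (-0.11 to 0.65) with WT and 0.15 (-0.23 to 0.53) with mutant TET2, and by 0.11 and 0.01 without naïve replicate 3. Jak1 (chromosome 4, 100824972 to 100937887), the JAK most used by gp130 receptors, differed by 0.31 (-0.12 to 0.74) and 0.38 (-0.05 to 0.82). Without naïve replicate 3 it differed by 0.44 and 0.42. The mutant difference was 0.55 and passed without mutant primed replicate 3 (limma, adjusted p = 0.0469). Raver2, on the opposite strand and overlapping an exon of Jak1, had 68 to 379 reads per library against 306 to 1351 for Jak1. Reads from their overlap cannot be told apart.

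Stat3 (mm9 chromosome 11, 100746412 to 100800854) was at 10.93, 10.56 and 10.62 in WT naïve and at 10.55, 10.21 and 10.51 in WT primed libraries. With mutant TET2 it was at 10.65, 10.25 and 10.56 in naïve and at 10.07, 10.30 and 10.002 in primed libraries. With WT TET2 every naïve library was above every primed one, by a narrow margin, while with mutant TET2 naïve replicate 2 was below primed replicate 2. The difference was 0.28 (95% interval -0.06 to 0.63, adjusted p = 0.191) and 0.36 (0.02 to 0.71, adjusted p = 0.0953). It did not pass the adjusted test in either line or under any alternative, with a lowest adjusted p of 0.162 and 0.0579, and was 0.32 and 0.33 without naïve replicate 3. Stat5a, on the opposite strand and overlapping an exon of Stat3, had 12 to 113 reads per library.

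Socs3 (mm9 chromosome 11, 117827393 to 117831361), the classic readout of STAT3 output, was at 10.34, 10.51 and 10.18 in WT naïve and at 10.28, 10.21 and 10.64 in WT primed libraries. With mutant TET2 it was at 10.28, 10.50 and 10.65 in naïve and at 10.29, 10.30 and 10.18 in primed libraries. The media overlapped in both lines. The difference was -0.03 (95% interval -0.37 to 0.30, adjusted p = 0.891) with WT and 0.22 (-0.11 to 0.56, adjusted p = 0.297) with mutant TET2. Without naïve replicate 3 the values were 0.05 and 0.14. A change of 1 on the log2 scale, as seen for Pim1, lies outside both intervals.

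Of the other targets, Pim3 (mm9 chromosome 15, 88692616 to 88696150) differed by -0.13 (-0.50 to 0.24) with WT and 0.06 (-0.31 to 0.42) with mutant TET2, or by 0.02 and -0.03 without naïve replicate 3, so the 2 Pim kinases of the list had different values in the same libraries. Junb (chromosome 8, 87500811 to 87502617), a subunit of the AP-1 transcription factor, was at 7.46, 7.79 and 8.02 in WT naïve and at 8.29, 8.29 and 8.24 in WT primed libraries, without overlap. With mutant TET2 it was at 7.04, 7.70 and 8.40 in naïve libraries, a spread that covered the primed values of 8.29, 8.05 and 7.82. Its difference was -0.51 (-1.07 to 0.04, adjusted p = 0.14) and -0.34 (-0.90 to 0.21, adjusted p = 0.332). Without naïve replicate 3 it was -0.64 with WT and -0.69 with mutant TET2, where the mutant value passed the test (limma, adjusted p = 0.0308). Bcl3 (chromosome 7, 20393811 to 20408119), an atypical IκB protein that acts on NF-κB subunits in the nucleus, differed by 0.06 (-0.46 to 0.58) and 0.52 (0.002 to 1.05, adjusted p = 0.109). Mutant naïve replicate 3 stood at 8.46 against 7.46 and 7.70 in the other mutant naïve libraries, and without it the mutant difference was 0.23 (limma, adjusted p = 0.46). Without WT naïve replicate 3 the WT difference was 0.15. Gm16175, on the opposite strand and overlapping an exon of Bcl3, had 4 to 19 reads per library.
Counted by overlap, 4 members had no overlap between media with WT TET2 (Stat3, Pim1, Gbx2 and Junb), against 50.0% of all genes tested, and 2 with mutant TET2 (Pim1 and Gbx2), against 43.5%. Neither share was above the background.

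**Figure D3:**
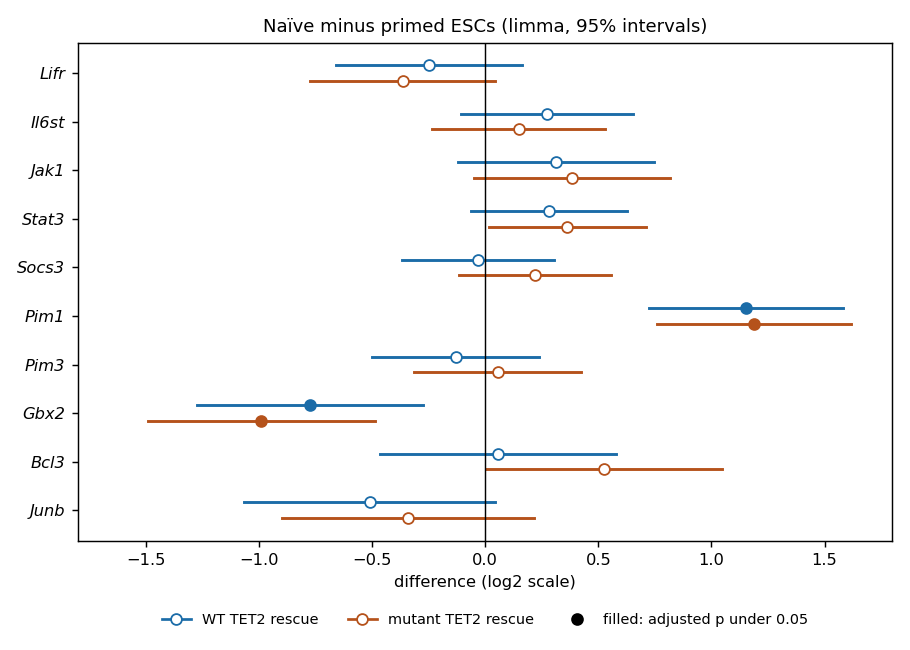
Naïve minus primed difference (log2 scale) of the 10 genes in the WT and mutant TET2 rescue lines, with 95% intervals from limma; filled points have an adjusted p under 0.05. Only Pim1 (1.15 and 1.19) and Gbx2 (-0.77 and -0.99) are filled, and the intervals of Socs3 and Pim3 include 0 in both lines.

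The difference between media was then compared between the rescue lines as an interaction. It was called for 0 of the 10 members, and for 0% of all genes tested, with 0 members and 489 genes at an unadjusted p under 0.05 and no call by limma-voom either. For Pim1 the WT minus mutant value was -0.04 (95% interval -0.64 to 0.57, adjusted p = 0.996), and for Gbx2 0.22 (-0.49 to 0.92, adjusted p = 0.98). The member with the largest value was Bcl3, at -0.47 (-1.204 to 0.27, adjusted p = 0.976). Intervals of this width leave room for differences between the lines of 0.5 or more in either direction for Pim1.

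The rescue lines were compared within each medium, which asks whether these genes differ between the WT and mutant line after SETDB1 depletion. Tet2 RNA also differed between the lines, so catalytic activity, Tet2 RNA level and line cannot be told apart here. For TET2 protein, the study reported similar levels of the WT and mutant forms by Western blot. In naïve ESCs 0 of the 10 members were called, against 0.0987% of all genes (14 genes, or 36 when replicate numbers were used as a block), and no member's unadjusted p was under 0.05. In primed ESCs 0 were called, against 0.254% of all genes, and the unadjusted p of 1 member, Bcl3, was under 0.05. The count by limma-voom was also 0 of 10 in both media. Values above 0 were found for 8 of 10 members in naïve ESCs and for 9 of 10 in primed ESCs, with medians of 0.12 and 0.15 against 0.003 and 0.01 over all genes tested. These counts carry no test, since the members share their libraries.

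Il6st and Jak1 had the larger naïve values, 0.31 (95% interval -0.08 to 0.69) and 0.31 (-0.13 to 0.74). They fell to 0.14 for Il6st without WT naïve replicate 3 and to 0.097 for Jak1 without WT naïve replicate 1. Lifr was at 0.21 (-0.20 to 0.62) and Stat3 at 0.22 (-0.13 to 0.56). Socs3 had a value of -0.13 (-0.47 to 0.20) and Pim3 of -0.12 (-0.49 to 0.25). Pim1 was the closest to 0, at 0.01 (-0.42 to 0.44), and took either sign under the alternatives. Gbx2, Bcl3 and Junb were at 0.17 (-0.33 to 0.67), 0.06 (-0.46 to 0.58) and 0.05 (-0.51 to 0.60).
No member was separated between the lines in naïve ESCs, where 16.8% of all genes had no overlap. In primed ESCs 1 member was separated, Bcl3, against 22.4% of all genes. Bcl3 was at 7.82, 7.68 and 8.12 with WT and at 7.25, 7.56 and 7.25 with mutant TET2, and all WT libraries lay above the mutant ones. Its difference of 0.52 (95% interval 0.0008 to 1.04) had an exact permutation p of 0.1, the smallest possible, and a limma adjusted p of 0.308 (0.186 to 0.668 over the alternatives). Jak1 and Stat3 followed at 0.38 (-0.05 to 0.81) and 0.30 (-0.05 to 0.64), with adjusted p of 0.37 and 0.377. The other 7 primed values were between -0.04 (Gbx2) and 0.22 (Junb).

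**Figure D4:**
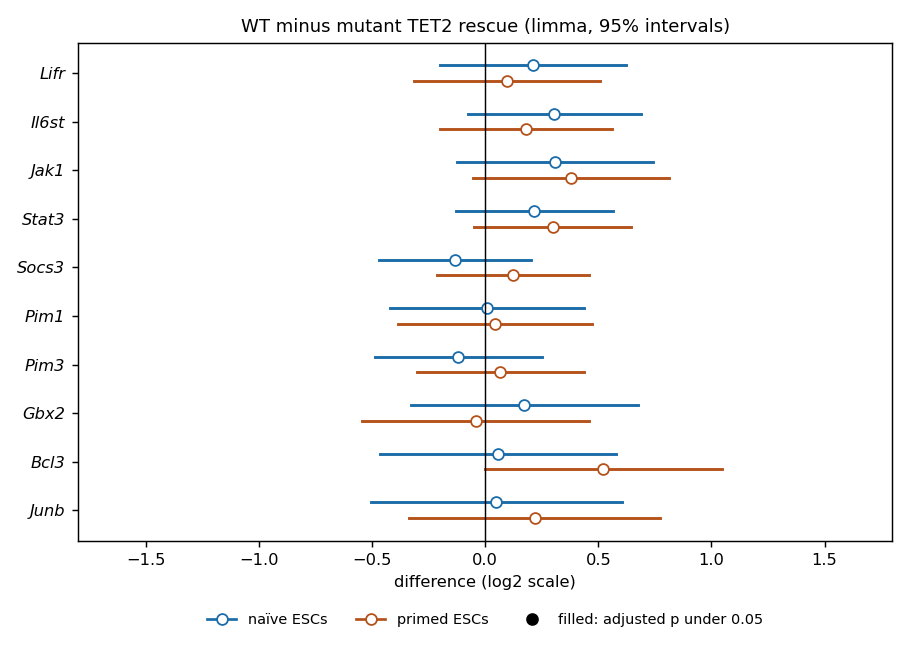
WT minus mutant TET2 difference (log2 scale) of the 10 genes in naïve and primed ESCs, with 95% intervals from limma. No point is filled, since none had an adjusted p under 0.05, and the largest value is that of Bcl3 in primed ESCs (0.52).

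Other genes of the pathway were taken from fixed lists of 57 genes, of which 55 were in the table and 51 were tested. Il6, Il11, Clcf1 and Osmr fell under the filter, with at most 4 reads in a library. Tfcp2l1 and Cebpd were not found by symbol, and older symbols were not looked up, so they may be in the table under another name. Between the rescue lines 0 of the 51 were called in either medium. Between media 29 were called with WT TET2 (12 higher and 17 lower in naïve ESCs) and 25 with mutant TET2 (13 and 12), and 22 were called in the same direction in both lines, 11 each way. These are 56.9%, 49% and 43.1% of the 51 genes, beside 35.9%, 35.2% and 26.1% of all genes tested. The lists were chosen with earlier results of these data known, and these shares carry no test.

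Among the ligands Osm, which encodes oncostatin M, another cytokine that signals through gp130, showed the largest difference, 2.96 with WT and 3.13 with mutant TET2 (adjusted p = 4.77e-08 and 3.8e-08). It had 110 to 306 reads in naïve libraries and 1 to 8 in primed ones. Lif itself was lower in naïve ESCs with WT TET2, by -1.01 (adjusted p = 0.000869), at 6.17, 6.11 and 6.16 against 7.17, 7.14 and 7.16. With mutant TET2 the value was -0.39 (95% interval -0.81 to 0.02, adjusted p = 0.128), and without mutant primed replicate 3 it was -0.57 and passed the test (limma, adjusted p = 0.0323). Ctf1, the cardiotrophin gene, was at -0.53 with WT TET2 (adjusted p = 0.0411), a call lost under 10 alternatives, with an adjusted p of up to 0.179. Its mutant value was close, at -0.51 (adjusted p = 0.0501), and passed under 4 alternatives (adjusted p = 0.0294 to 0.0392). Of the receptors, Il6ra was higher by 1.03 and 0.82 (adjusted p = 0.00494 and 0.0199), and the mutant call was lost without single libraries, at an adjusted p of up to 0.124. Cntfr, the receptor chain for ciliary neurotrophic factor, was lower by -0.88 with WT TET2 (limma, adjusted p = 0.00825). With mutant TET2 it was at -0.52 (adjusted p = 0.0976) and passed under 2 alternatives (adjusted p = 0.0203 and 0.0386). Cntfr had few reads, 2 to 6 in WT naïve and 15 to 37 in WT primed libraries. In the mutant line it had 1 to 10 in naïve and 3 to 17 in primed libraries. Ctf1 had 11 to 46 reads per library and Il6ra 5 to 103.

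Of the 12 other JAKs, STATs and adaptors, 3 were higher and 3 lower with WT TET2, and 4 and 3 with mutant TET2, which makes 50% and 58.3% called beside 35.9% and 35.2% of all genes. Jak2 was higher in naïve ESCs by 1.01 and 1.05 (adjusted p = 0.00986 and 0.00767), where the WT call was lost without WT primed replicate 1 (adjusted p = 0.0648). Stat2, a STAT of the interferon response, was higher by 1.13 and 1.27 (adjusted p = 0.0017 and 0.000736), and Stat5a by 0.80 and 1.07 (adjusted p = 0.0124 and 0.00188), the former lost without WT naïve replicate 1 (adjusted p = 0.0657). Stat4 was lower by -1.18 and -1.28 (adjusted p = 0.00182 and 0.00107), and the adaptor Gab1, which links gp130 to the MAPK branch, by -0.90 and -0.90 (adjusted p = 0.000456 and 0.000478).
Of the 14 other inhibitors, 4 were higher and 2 lower with WT TET2, and 3 and 2 with mutant TET2, or 42.9% and 35.7%, close to the shares over all genes. Pias3, an inhibitor of STAT3, was higher by 0.70 and 0.69, and the phosphatase gene Ptpn6 by 0.80 and 0.52. The mutant Ptpn6 call was lost without mutant naïve replicate 1 (adjusted p = 0.0783) or mutant primed replicate 2 (adjusted p = 0.0995). Ptpn1, another phosphatase, was lower by -0.68 and -0.62, and the SOCS family gene Cish by -1.10 with WT TET2. With mutant TET2 Cish was at -0.50 (limma, adjusted p = 0.0804), which passed with quantile normalization (adjusted p = 0.0374). Cish had few reads, 2 to 12 in WT naïve and 26 to 67 in WT primed libraries. In the mutant line it had 17 to 22 in naïve and 20 to 35 in primed libraries. Socs6 was higher by 0.66 and 0.54, and the mutant call was lost under 6 of the alternatives.

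Of the 18 other genes known as STAT3 targets that were tested, 3 were higher and 9 lower in naïve ESCs with WT TET2, and 4 higher and 7 lower with mutant TET2. Myc was the lowest of them, at -2.51 and -2.83 (adjusted p = 4.01e-06 and 1.25e-06), with 3 to 33 reads in naïve and 129 to 299 in primed libraries. Pim2, the remaining Pim kinase, was lower by -1.55 and -1.95 (adjusted p = 0.00132 and 0.00021), the direction opposite to that of Pim1. Sall4, a zinc finger factor of pluripotency, was lower by -1.19 and -1.18. Timp1, a metalloproteinase inhibitor, was higher by 0.99 and 1.38 (adjusted p = 0.00161 and 0.000103), and the kinase gene Sgk1 by 1.05 and 0.50 (adjusted p = 0.000499 and 0.0493), the latter lost under 10 alternatives. Their shares called, 66.7% and 61.1%, stand beside backgrounds of 35.9% and 35.2%. The median difference of these targets was -0.30 and -0.13.

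**Figure D5:**
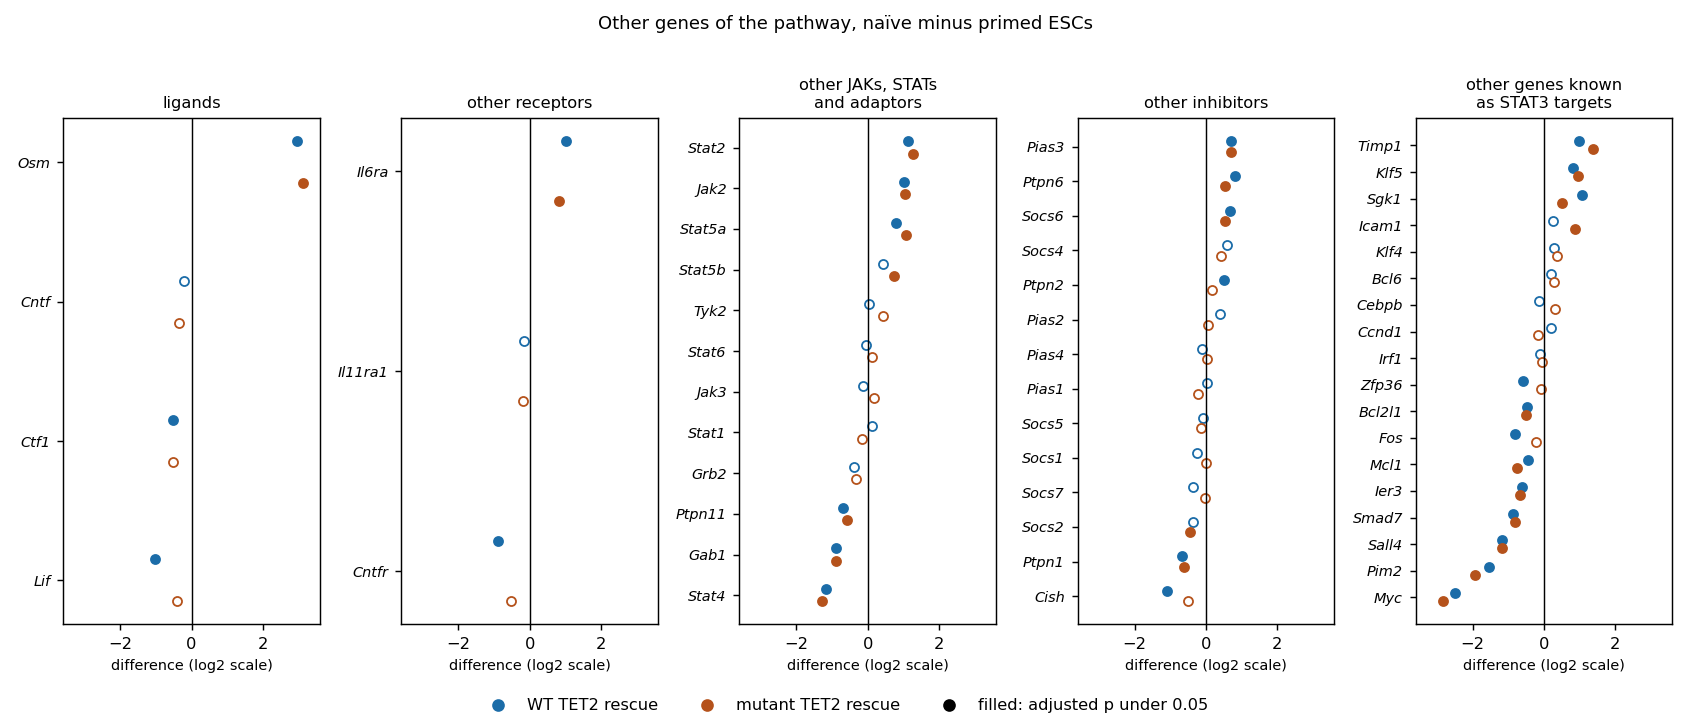
Naïve minus primed difference (log2 scale) of the 51 other pathway genes tested, by list, in the WT (blue) and mutant (orange) TET2 rescue lines; filled points have an adjusted p under 0.05. Osm (2.96 and 3.13) is the highest and Myc (-2.51 and -2.83) the lowest.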

How the data were processed

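Per the labels, non-directional poly(A) libraries were made, and the authors trimmed reads with Trim Galore 0.3.3, aligned them to mm9 with TopHat2 2.0.9 (a read with several equally good hits went to one at random), counted reads per gene and used DESeq2. The deposited values are variance-stabilised and on a log2 scale, and include size factors. Inverting the transformation gave whole reads (within 0.05) for 100% of values. The repeat table was not used here, and 0 columns belonged to other samples. The 12 libraries were fitted together with limma 3.58.1 (R 4.3.3, intensity trend), with Benjamini-Hochberg adjustment over the 14185 genes whose mean exceeded the table's lowest value by 1 or more. The steps were tested on simulated data. Sequences, positions and figures were handled in Python 3.11.15 with pandas 2.3.3, numpy 2.4.6 and matplotlib 3.10.9. In proportion to the count, counting error is largest for Gbx2, the member with the fewest reads.

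The members, gene lists and tests were chosen with earlier results of these data known. Named are the members, up to 4 called genes with the largest differences per pathway list and comparison, marker genes, Tet2 and Setdb1, and the 3 nearest profiles of Socs3, Stat3 and Gbx2. Genes overlapping a member were named after their values were seen. Pairing follows the replicate numbers of the labels: same-numbered naïve libraries of the 2 lines deviated together (correlations of 0.30 to 0.586), while primed ones did not in every pair (-0.0652 to 0.189). Alternatives were other filters, no trend, median centring, quantile normalization, the replicate block and limma-voom on recovered reads. Further alternatives were fits of only the 2 groups compared and fits with each library left out. Stricter thresholds were applied only to counts over all genes.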

Additional observations from a re-analysis of the deposited data

How the results depend on the processing

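Of 750 values of the 10 members under alternatives, 703 kept their direction and their side of the threshold. The Pim1 calls between media held in every alternative fit at an adjusted p under 0.05, and so did that of Gbx2 with mutant TET2. With WT TET2 it was lost in 4 fits that left out a library. Junb passed between media with WT TET2 when only the 2 groups compared were fitted (-0.51, adjusted p = 0.0426, range over alternatives 0.0426 to 0.353). The causes were not tested. The intervals rest on 3 libraries per group. Gbx2, Bcl3 and Junb had the fewest reads of the members. The part of read counts, or of the spread between libraries, in the interval widths was not tested.

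With the replicate number as a block, 36 genes were called between the rescue lines in naïve ESCs and 209 in primed ESCs, against 14 and 36 without it. In primed ESCs same-numbered libraries did not deviate together in every pair (correlations of -0.0652 to 0.189). The block gave 4785 and 4677 genes between media and 0 for the interaction, and it changed the call of no member. With no filter on low values 9 genes were called between the naïve lines, and with only the 2 groups compared 9 in naïve and 18 in primed ESCs. At an adjusted p under 0.01 the counts were 6, 13, 3096 and 2989 for naïve lines, primed lines, media with WT and media with mutant TET2, and a difference over 1 left 1745 and 1636 between media. Leaving out single libraries gave 5 to 14 genes between naïve lines, 12 to 82 between primed lines, 3505 to 4678 and 3563 to 5099 between media, and 0 to 1 for the interaction.

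The naïve WT minus mutant value of Pim1 reversed with median centring (-0.0089) and quantile normalization (-0.058). The sign of other uncalled values turned when a library was left out. Between naïve lines the ranges were -0.16 to 0.35 for Bcl3, -0.030 to 0.37 for Gbx2, -0.29 to 0.39 for Junb, -0.15 to 0.26 for Pim1, -0.23 to 0.033 for Pim3 and -0.068 to 0.31 for Setdb1. Between primed lines they were -0.18 to 0.13 for Gbx2, -0.15 to 0.25 for Lifr, -0.082 to 0.18 for Pim1, -0.030 to 0.17 for Pim3, -0.14 to 0.38 for Setdb1 and -0.013 to 0.21 for Socs3. Between media with WT TET2 they were -0.15 to 0.18 for Bcl3, -0.23 to 0.023 for Pim3 and -0.12 to 0.10 for Socs3, and with mutant TET2 -0.027 to 0.17 for Pim3. For the interaction they were -0.042 to 0.27 for Il6st, -0.28 to 0.079 for Jak1, -0.51 to 0.17 for Junb, -0.042 to 0.36 for Lifr, -0.20 to 0.22 for Pim1 and -0.20 to 0.00074 for Stat3.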

Other observations

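The profiles most like those of Socs3, Stat3 and Gbx2 were sought over the 12 libraries among all other genes tested, as the root mean square distance between profiles that were each centred on their own mean. For Socs3 they were B4galt3 (0.0831), Gm20388 (0.104) and Blcap (0.107), against a median distance of 0.369 over all genes. For Stat3 they were Smc1a (0.0925), Sdha (0.0933) and Sp2 (0.0971), with a median of 0.416. For Gbx2 they were Lmnb2 (0.139), Fiz1 (0.14) and Grwd1 (0.142), with a median of 0.588. These distances are descriptions, and a flat profile such as that of Socs3 is near to many other flat ones.

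The 2 naïve libraries with replicate number 3 were higher than the other naïve libraries by 0.60 for Gbx2, 0.71 for Junb and 0.46 for Il6st on the log2 scale, averaged over both lines. Pim1 was lower in replicate 3 of the WT line, at -0.76 from the mean of the other WT naïve libraries, while in the mutant line the gap was -0.098. Among markers of primed or formative cells, Dnmt3a, Dnmt3b and Dnmt3l were higher there by 0.50, 0.86 and 0.55, while Otx2, Pou3f1 and Sox3 had values of -0.19, -0.09 and -0.26. Their part in the differences between media was not tested beyond the values without these libraries.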
